A study of Mus musculus with 16 samples.

Results

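The comparison asked which genes of the heart respond more, or less, to endotoxin when cardiomyocytes lack PPARα. All 16 libraries of the series entered it, 4 male C57BL/6J mice aged 8 to 12 weeks in each of 4 groups. The groups were Ppara-Flox mice given phosphate-buffered saline (PBS), Ppara-Flox mice given lipopolysaccharide (LPS, the endotoxin of Gram-negative bacteria) at 5 mg/kg into the peritoneum, and cardiomyocyte PPARα deficient mice given PBS or the same LPS dose. Hearts were taken 12 h later. The labels do not name the Cre line or the promoter that drives it, and no group carried Cre without the floxed alleles, so the loss of PPARα and the presence of Cre cannot be told apart. In what follows the 2 genotypes are called flox and deficient hearts. The interaction of a gene is its LPS effect (LPS minus PBS, log2) in deficient hearts minus its LPS effect in flox hearts. A positive value means that the gene ended higher in deficient hearts after LPS than the flox response would give, through a larger rise or a smaller fall. A negative value means a smaller rise or a larger fall.

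PPARα is a nuclear receptor that binds DNA together with the retinoid X receptor and is switched on by fatty acids and their derivatives. In cardiomyocytes it drives genes for fatty acid uptake, storage in lipid droplets, and oxidation in mitochondria and peroxisomes, the main fuel route of the healthy heart. LPS signals through Toll-like receptor 4 to cytokine and interferon programmes, and in the heart it is known to lower genes of energy metabolism and contraction.

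The libraries held 65569134 to 75436023 estimated counts each, or 16392284 to 18859006 when divided by the step of 4 seen among their low values. The first principal component held 57.12% of the variance and separated LPS from PBS. Cardiomyocyte genes were high in all 16 libraries, and 0 of 7 islet markers passed the filter on low counts, although a label text speaks of islets. Some libraries stood apart within their groups. Deficient PBS replicate 4 had raised inflammatory genes, and among the LPS hearts flox replicate 4 and deficient replicates 3 and 4 had the most genes (1.91% to 1.99%) at least 1 log2 unit from the other 3 of their group. The numbers in the column headers ran from 957 to 1075 for PBS and from 1739 to 1769 for LPS libraries. LPS and the order of numbering therefore cannot be told apart. PBS replicates 1 and 2 of both genotypes had 957 to 971, and replicates 3 and 4 had 1069 to 1075. This split is the PBS number series named below.

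Ppara itself was 59.3, 37.4, 47.7 and 56.4 CPM (counts relative to the scaled total of the library) in the 4 flox PBS hearts and 10.2, 7.23, 13.1 and 14.7 in the flox LPS hearts. It was 11.4, 17.6, 15.1 and 14.2 CPM in the deficient PBS hearts and 4.25, 6.32, 11.9 and 9.45 in the deficient LPS hearts. The genotypes were apart under PBS and overlapped after LPS, as the flox level came down toward the deficient one. Ppara fell in both genotypes, by 2.15 on the log2 scale in flox and by 0.87 in deficient hearts, and its interaction was 1.28 ± 0.38 (SE; edgeR adjusted p = 0.599). Whole-heart RNA includes cells in which Ppara is not deleted, and fewer cells of a type and less RNA per cell cannot be told apart in any value here.

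No gene passed the interaction test. Of 18713 genes tested, 0 (0%) had an edgeR adjusted p under 0.05, and 1075 (5.74%) had an unadjusted p under 0.05, 519 of them positive (2.77%) and 556 negative (2.97%). The smallest adjusted p was 0.0696, shared by the muscle genes Csrp3 and Synpo2l, and 4 genes were under 0.1. DESeq2's Wald test on the same counts called 55 genes, 26 positive and 29 negative, and limma-voom called 0. The 55 include genes with a PBS group at 0, whose fitted values have no reading as folds. Examples are Gm20716 (DESeq2 log2 value -29.45), Hist2h2aa1 (27.14) and Il6 (-6.3). Leaving out 1 library at a time gave 0 to 4 calls. The most came without deficient LPS replicate 1 (4 calls), then deficient LPS replicate 4 (2 calls), then 1 call each without deficient PBS replicate 4, flox LPS replicate 1 or deficient LPS replicate 3. Without flox LPS replicate 4 and deficient LPS replicate 3 together there were 5 calls, 1 positive and 4 negative.

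The absence of calls was not everywhere backed by a narrow estimate. The unadjusted 95% interval of the interaction lay wholly between -1 and 1 (less than a 2-fold difference between the responses) for 10448 genes (55.8%). Among the 10772 genes with an average log2 CPM of at least 2 it did so for 9506 (88.2%). Among the 4234 genes of any level with an average LPS effect of at least 2-fold it did so for 1135 (26.8%). Among the 1485 genes that met both conditions it did so for 1010 (68%). For the remaining genes a 2-fold difference between the genotypes in the response was not excluded by their interval.

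Both responses covered a like number of genes. LPS changed 7354 genes (39.3%) in flox hearts, 3771 higher (20.2%) and 3583 lower (19.1%). It changed 7061 genes (37.7%) in deficient hearts, 3632 higher (19.4%) and 3429 lower (18.3%). Both responses included 2926 genes that rose and 2750 that fell in each, and the estimates of these 5676 genes lay within 1.5-fold of each other for 5132 (90.4%). These genes were kept for being called in the same direction in both, which favours close estimates. The effect was larger in deficient hearts for 2685 of them and smaller for 2991.

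Most calls made in 1 genotype only had the same sign in the other. Of 844 genes that rose in flox hearts alone, 789 had a positive estimate in deficient hearts, and of 832 that fell in flox hearts alone, 773 had a negative one. For the genes called in deficient hearts alone the same held for 658 of 705 that rose and 615 of 678 that fell. Of the 8737 genes called in either response 895 had an unadjusted interaction p under 0.05. Only 2 genes were called in opposite directions, Synpo2l and the gene model 4933434E20Rik.

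Across genes the 2 sets of LPS effects, which share no library, had a Pearson r of 0.753 over all 18713 genes and 0.92 over the 10772 better expressed ones. Over the 1485 genes with an average effect of at least 2-fold it was 0.942, and 1480 of them had the same sign. Both values are partly set by that choice, since a large average needs effects of like sign. Genes are not independent replicates, and these values are descriptions. The slope of the line through the points (deficient against flox, principal axis) was 0.956 for the better expressed genes and 0.949 for the 1485, where 1 is an equal response. The plot of both effects shows the cloud along the line of equal effects and the named genes at its edges.

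**Figure D1:**
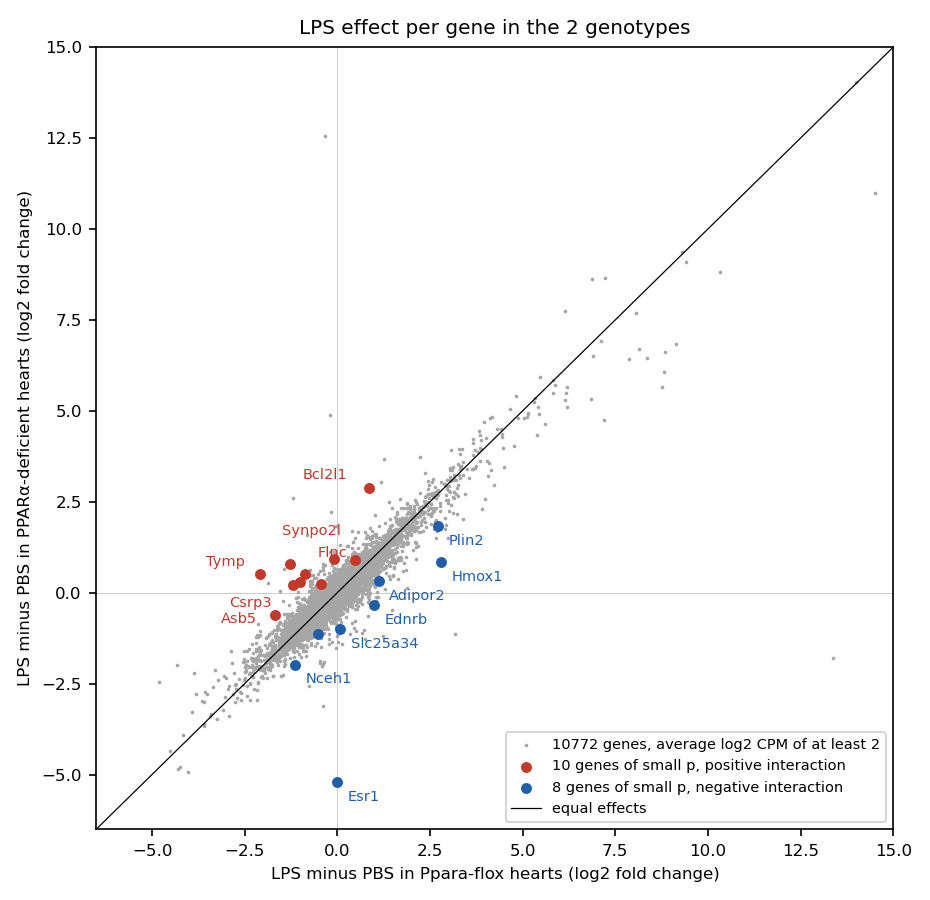
LPS effect (log2 fold change) in deficient hearts (vertical axis) against flox hearts (horizontal axis). Grey points are the 10772 genes with an average log2 CPM of at least 2, the line marks equal effects, and coloured points are genes among the 20 of smallest unadjusted p with a positive (red, 10 genes) or negative (blue, 8 genes) interaction. Most points lie close to the line (Pearson r = 0.92), with Esr1, Tymp and Synpo2l the coloured genes farthest from it.

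Each LPS library was given 1 number, the response size of each LPS library, which is the slope of its change from the PBS hearts of its own genotype on the average LPS effect over genes with an average effect of at least 2-fold. The flox LPS hearts had slopes of 1.034, 1.009, 0.873 and 1.053, and the deficient LPS hearts 0.992, 1.01, 1.019 and 0.852. Flox replicate 3 and deficient replicate 4 were the weakest responders of their groups, and the groups overlapped. The means were 0.992 ± 0.081 and 0.968 ± 0.078 (SD, n = 4), a difference of -0.0243 (two-sided exact permutation test over 70 splits, p = 0.5143, where the smallest possible is 0.0286). The slopes of 1 genotype share the same 4 PBS hearts, so this p covers only the spread between LPS hearts. Without deficient PBS replicate 4 this difference was 0.0001, and without deficient LPS replicate 4 it was 0.0045.

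With all 16 libraries, the median interaction leaned toward a smaller response in deficient hearts in most, but not all, ranges of average LPS effect. These medians were not computed with libraries left out. The difference in response size given above was no longer negative without deficient PBS replicate 4 or deficient LPS replicate 4. The median of the cytokine list described below also changed sign without deficient PBS replicate 4. Of the 601 better expressed genes whose average effect was a fall of 1 to 2 on the log2 scale, 356 had a positive and 245 a negative interaction, with a median of 0.047. Of 507 genes with a rise of 1 to 2, 238 were positive and 268 negative (median -0.021). The 105 genes with falls of 2 to 4 had a median of 0.142, a slightly shallower fall in deficient hearts. The 56 genes with rises over 4 had a median of -0.236, and only 7 of them had an interval within the 2-fold bound. The 211 genes with rises of 2 to 4 (median 0.032) and the 5 with falls over 4 (median -0.554) leaned the other way.

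Among the 1075 genes with an unadjusted p under 0.05, responses that were smaller in deficient hearts were more numerous than larger ones. Both effects pointed up for 346, of which 200 were smaller and 146 larger in deficient hearts. Both pointed down for 344, of which 199 were smaller and 145 larger. For 385 the effects had opposite signs, 211 up in flox and down in deficient hearts and 174 the reverse. None of these 1075 is a call, and these counts were taken with all 16 libraries only.

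The 20 genes of smallest unadjusted p, 10 in each direction, held several muscle and lipid genes, although none passed the test. The positive 10 were Csrp3, Synpo2l, Asb5, Flnc, Tymp, Col11a2, Hspb7, Bcl2l1, Tjap1 and Lins1. The negative 10 included Nceh1, Slc25a34, Adipor2, Hmox1, Acacb, Esr1, Ednrb and Plin2. DESeq2 called 19 of the 20, all but Bcl2l1. In 16 of them the LPS libraries of the genotypes did not overlap (5.32% of all genes), and the genotype difference after LPS passed the test in 15. Of all genes that difference passed in 231 (1.23%), 72 higher (0.385%) and 159 lower (0.85%) in deficient hearts. Under PBS the genotypes did not overlap in 10 of the 20 (3.99% of all genes), and the difference passed in 3 (Tymp, Col11a2 and Esr1), where 81 of all genes (0.433%) passed, 6 higher (0.0321%) and 75 lower (0.401%). These comparisons share libraries with the interaction and are given as values beside it.

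**Figure D2:**
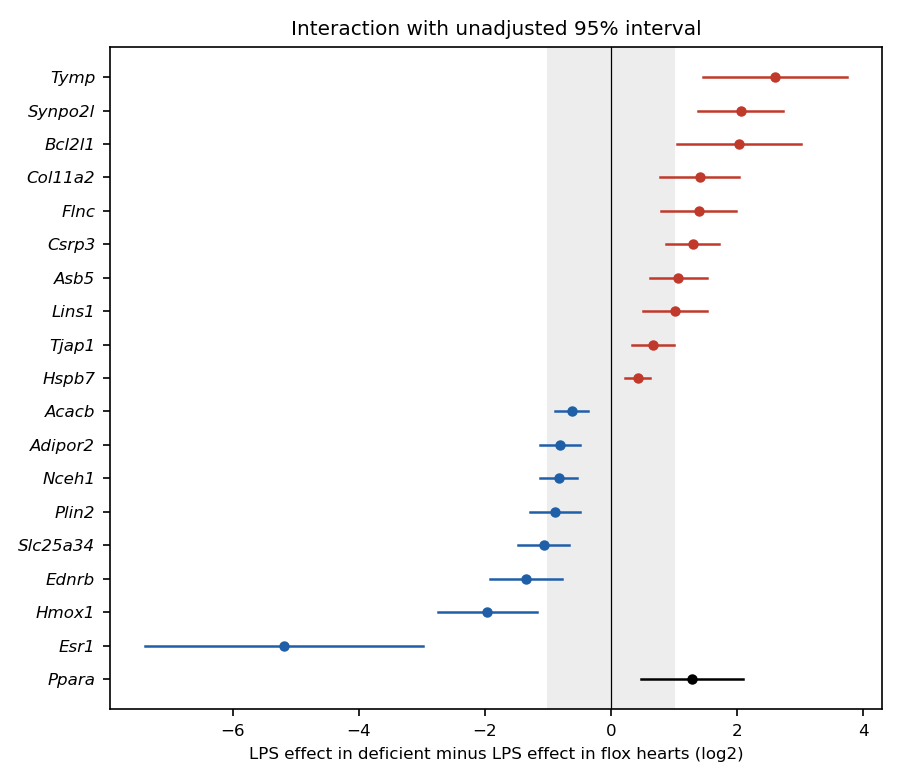
Interaction (LPS effect in deficient minus flox hearts, log2) as points with unadjusted 95% intervals for 18 of the 20 genes of smallest unadjusted p and for Ppara (black). Red is positive, blue negative, and the grey band marks a difference under 2-fold. Csrp3 and Synpo2l, with the smallest adjusted p (0.0696), have intervals of 0.87 to 1.72 and 1.38 to 2.73.

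Of the positive 10, 5 are muscle genes (Csrp3, Synpo2l, Asb5, Flnc and Hspb7), all with a higher level in deficient than in flox hearts after LPS. Csrp3 encodes muscle LIM protein, a Z-disc protein of the stretch-sensing machinery, on chromosome 7 (48830398 to 48848033, minus strand, GRCm38). Its level was 697, 795, 924 and 649.8 CPM in flox PBS hearts and 479, 357, 335 and 361 in flox LPS hearts. Deficient hearts had 927, 959, 873 and 817 CPM under PBS and 823, 1102, 1270.4 and 1192 after LPS. All flox LPS hearts were below all other hearts, while the deficient LPS hearts lay within or above the PBS range of their genotype. Csrp3 fell by 1.00 on the log2 scale in flox hearts (adjusted p = 3e-05), its effect in deficient hearts was 0.29 ± 0.14 SE (adjusted p = 0.11), and the interaction was 1.295 ± 0.199 SE (adjusted p = 0.0696). Over the alternative settings its adjusted p ran from 8.02e-06 (DESeq2) to 0.271, and 7 of 29 put it under their threshold. Those 7 include the reported fit read at an adjusted p under 0.1.

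Synpo2l encodes a cytoskeletal protein of the Z-disc related to synaptopodin, on chromosome 14 (20658946 to 20668354, minus strand). It was 164, 156, 149 and 121 CPM in flox PBS hearts and 54.6, 42.3, 69.8 and 78.3 in flox LPS hearts. The deficient hearts had 167, 174, 146 and 143 CPM under PBS and 188, 370.0, 349 and 181 after LPS. Every flox heart was lower after LPS than under PBS and every deficient heart was higher, with no overlap in either genotype. Synpo2l fell in flox hearts by 1.27 on the log2 scale (adjusted p = 0.00028) and rose in deficient hearts by 0.79 (adjusted p = 0.010), with an interaction of 2.06 ± 0.32 SE (adjusted p = 0.0696). It passed in 8 of 29 alternative settings, including the reported fit read at an adjusted p under 0.1.

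The upstream sequences of the 20 genes were searched for 3 binding motifs of factors known in heart muscle or lipid metabolism, on both strands of the 250 bases before each RefSeq start (GRCm38.p6). RefSeq windows were matched for 17 of the 20, 25 windows in all. The MEF2 motif (CTATTT directly followed by ATAG) with up to 1 mismatch was in 1.6% of 32851 windows, the CArG box of serum response factor in 1.47%, and the direct repeat that PPARα binds, 2 copies of AGGTCA with 1 base between, with up to 2 mismatches, in 3.24%. No window of these genes matched more than 1 of the motifs. One Synpo2l window, chr14:20668355-20668604 on the minus strand, had a MEF2 match 109 bases before the start, in capitals here because Synpo2l was called in opposite directions:
Synpo2l: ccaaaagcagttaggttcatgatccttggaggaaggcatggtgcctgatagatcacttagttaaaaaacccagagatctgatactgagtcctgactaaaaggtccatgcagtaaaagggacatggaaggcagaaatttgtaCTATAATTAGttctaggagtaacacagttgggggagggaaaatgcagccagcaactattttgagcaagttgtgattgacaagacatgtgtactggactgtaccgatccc
Col11a2 also had a MEF2 match and Asb5 a CArG box. A match is a description of letters and not of binding.

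Flnc, the gene of filamin C, which cross-links actin at the Z-disc, had the same shape. It was 603 to 655 CPM in flox PBS hearts and 584 to 657 in deficient PBS hearts. After LPS it was 492, 244, 310.1 and 324 CPM in flox hearts and 520.1, 1070.0, 986 and 1029.7 in deficient hearts. Deficient replicate 1 lay next to flox replicate 1, and the other 3 deficient hearts, at 986 to 1070.0 CPM, were above every PBS heart. Flnc fell in flox hearts by 0.88 on the log2 scale, its effect in deficient hearts was 0.51 ± 0.20 SE (adjusted p = 0.054), and the Flnc interaction was 1.39 ± 0.28 SE (adjusted p = 0.192, and 0.0164 without deficient LPS replicate 1).

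Asb5, a muscle gene of an ankyrin repeat protein with a SOCS box, fell in both genotypes but less in deficient hearts. It was 15.8 to 17.7 CPM in flox PBS and 12.9 to 15.5 in deficient PBS hearts, then 3.97, 5.36, 6.01 and 5.41 in flox LPS and 6.99, 11.1, 10.9 and 8.24 in deficient LPS hearts. The LPS groups did not overlap, and the interaction was 1.07 ± 0.21 SE (adjusted p = 0.174). Hspb7, a small heat shock protein of cardiac muscle, rose in both genotypes, by 1.39-fold in flox and 1.87-fold in deficient hearts (interaction 0.43 ± 0.09 SE, adjusted p = 0.255). Its LPS levels were 2406 to 2829 CPM in flox and 3304 to 3595 in deficient hearts, again without overlap.

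**Figure D3:**
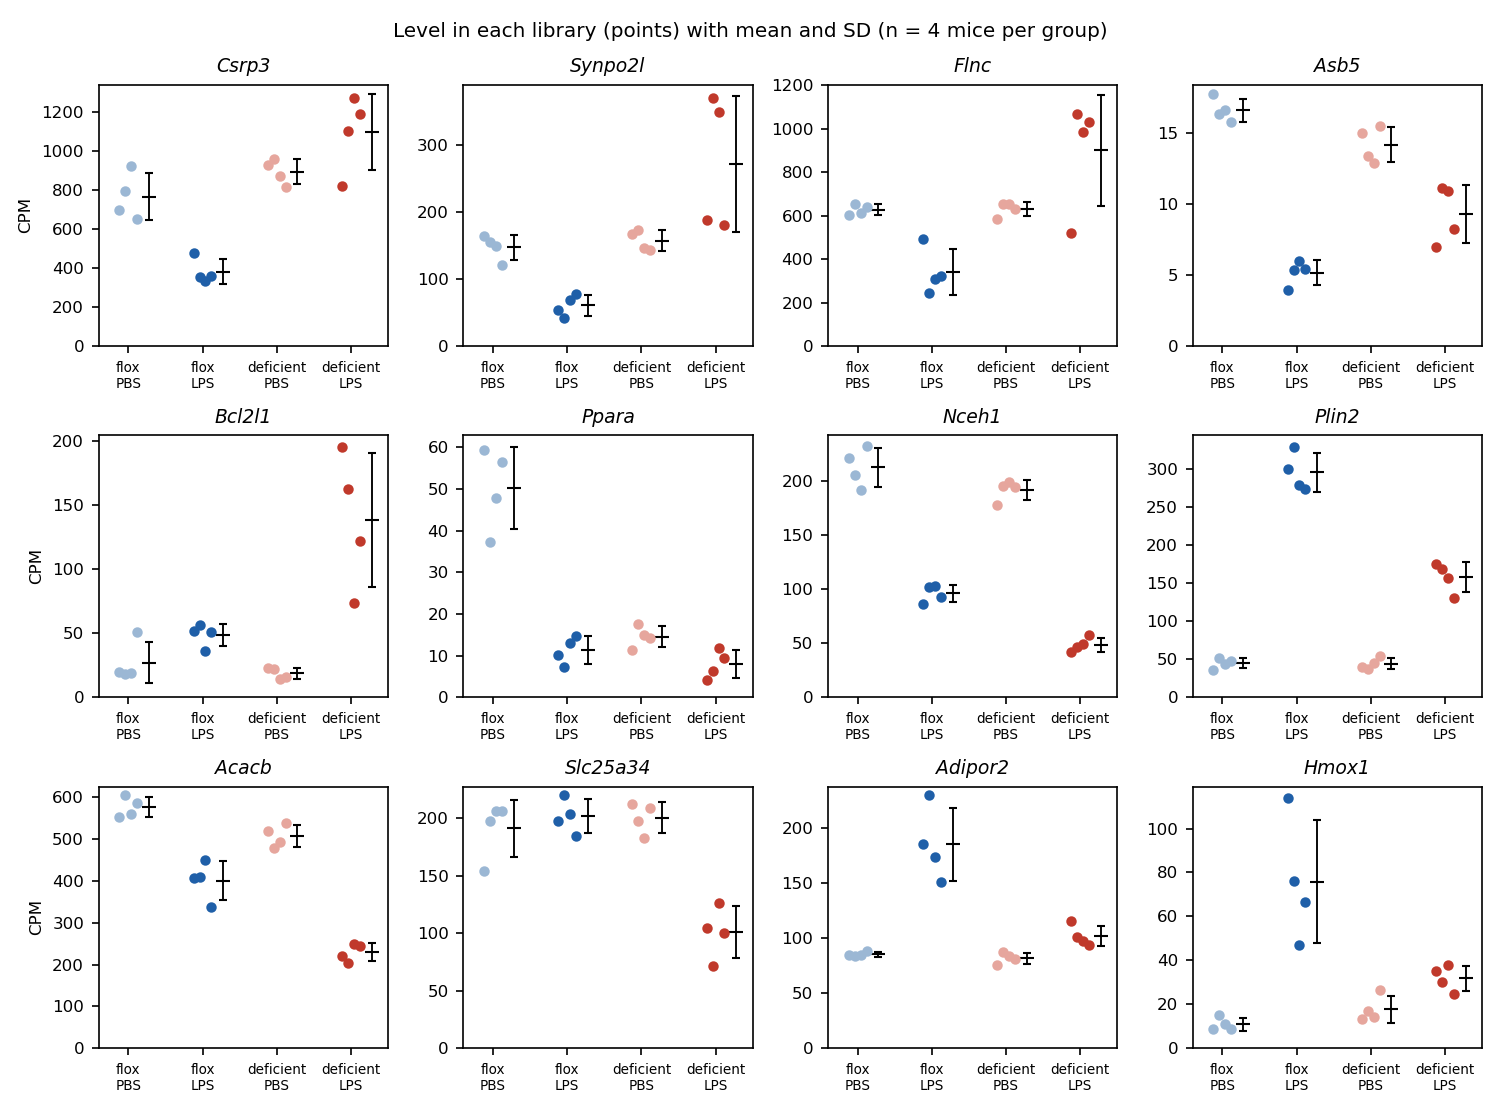
Level (CPM, linear axis from 0) of 12 genes in each heart (points), with the mean and SD of the 4 mice beside them. For Csrp3, Synpo2l and Flnc the flox LPS hearts are the lowest group. For Plin2 and Adipor2 the flox LPS hearts stand above the deficient ones, and Nceh1, Acacb and Slc25a34 are lowest in deficient LPS hearts.

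Across the 36 tested genes of the sarcomere and Z-disc, 10 had an unadjusted interaction p under 0.05, all positive, where 2.77% of all genes did. The list was written with earlier results of these data known and includes Csrp3, Synpo2l and Flnc. Its count is therefore not separate from the genes described above. The list held 31 positive and 5 negative values with a median of 0.139, against 0.004 for all genes. Leaving out 1 library at a time gave 8 to 12 such members. In flox hearts 22 members fell and 6 rose (19.1% and 20.2% of all genes). In deficient hearts 15 fell and 9 rose (18.3% and 19.4% of all genes). The genotype difference after LPS was called for 4 members, all higher in deficient hearts (0.385% of all genes).

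Smaller differences came from the contractile genes themselves. Myh7, the slow myosin heavy chain, had an interaction of 0.64 ± 0.23 SE (adjusted p = 0.782), and Tnnt2, cardiac troponin T, 0.27 ± 0.11 SE (adjusted p = 0.815). Actc1, cardiac α-actin, fell in both genotypes, 4.54-fold in flox and 2.95-fold in deficient hearts (interaction 0.62 ± 0.24 SE, adjusted p = 0.812). Cryab, a chaperone of desmin and the Z-disc, was 439 to 550.0 CPM in flox and 645 to 786 in deficient LPS hearts without overlap (interaction 0.49 ± 0.19 SE, adjusted p = 0.815).

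Markers of cardiomyocytes as a whole had mostly positive interactions. Of 12 markers 11 had a positive interaction (median 0.125, and 0.0747 without deficient PBS replicate 4). Of these, 2 had an unadjusted p under 0.05 (2.77% of all genes), and 0 without flox LPS replicate 4 and deficient LPS replicate 3. All 12 fell in flox and 7 in deficient hearts (19.1% and 18.3% of all genes). Their summed level was 40510 to 47950 CPM in flox LPS and 46610 to 51390 in deficient LPS hearts, and 73770 to 81290 and 68670 to 76460 under PBS. The part of this in the muscle gene values was not tested.

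Of the negative genes named, 3 act on the storage or oxidation of lipid (Plin2, Nceh1 and Acacb), all with a lower level in deficient than in flox hearts after LPS. Plin2 encodes perilipin 2, which coats lipid droplets, and lies on chromosome 4 (86648386 to 86670060, minus strand). It was 36.3, 51.2, 43.8 and 48.3 CPM in flox PBS hearts and 300.2, 329.6, 279 and 274 in flox LPS hearts. In deficient hearts it was 40.4, 36.9, 45.5 and 54.7 CPM under PBS and 176, 168, 156 and 131 after LPS. The genotypes overlapped under PBS and were fully apart after LPS. Plin2 rose 6.59-fold in flox and 3.56-fold in deficient hearts, with an interaction of -0.89 ± 0.18 SE (adjusted p = 0.201, and 0.00548 by DESeq2).

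The Plin2 window, chr4:86670060-86670309 on the minus strand, is shown because it held a direct repeat match of the kind PPARα binds (2 mismatches, 225 bases before the start, in capitals), as did a window of Ednrb:
Plin2: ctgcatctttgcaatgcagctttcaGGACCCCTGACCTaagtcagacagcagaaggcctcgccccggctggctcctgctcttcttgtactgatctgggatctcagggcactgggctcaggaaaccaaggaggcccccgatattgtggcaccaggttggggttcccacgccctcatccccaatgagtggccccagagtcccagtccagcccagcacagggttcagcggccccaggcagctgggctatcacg
Where no match was found, this says only that these letters are not in the window.

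Nceh1, the gene of an enzyme that hydrolyses cholesterol esters, fell further in deficient hearts. It was 221, 205, 192 and 232 CPM in flox PBS hearts and 86.4, 102, 103 and 92.6 in flox LPS hearts. Deficient hearts had 178, 195, 199 and 195 CPM under PBS and 41.5, 46.9, 49 and 57.2 after LPS. All 4 deficient LPS hearts were below all flox LPS hearts. Nceh1 fell 2.21-fold in flox and 3.94-fold in deficient hearts, with an interaction of -0.83 ± 0.14 SE (adjusted p = 0.0749). It was called in 5 of 29 alternative settings, including the reported fit read at an adjusted p under 0.1.

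Other lipid droplet genes had like values. Fitm2, needed for droplet formation at the endoplasmic reticulum, fell 1.45-fold in flox and 2.59-fold in deficient hearts, to 132 to 219.7 and 77.6 to 116 CPM (interaction -0.84 ± 0.20 SE, adjusted p = 0.326). Plin5, which ties droplets to mitochondria, was 115 to 164 CPM in flox PBS and 30.3 to 59.5 in deficient PBS hearts. After LPS it was 105 to 173 CPM in flox and 16.4 to 28.4 in deficient hearts, so that it fell in deficient hearts alone (interaction -0.97 ± 0.29 SE, adjusted p = 0.599). Of the 28 tested genes of lipid droplets, lipolysis and triglyceride synthesis 6 had a negative and 1 a positive unadjusted p under 0.05 (background 2.97% and 2.77%), with a median of -0.19. The negative count was 5 to 9 when 1 library was left out.

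Abcd3, a transporter of fatty acyl-CoA into peroxisomes, fell in deficient hearts (-0.47 ± 0.07 SE) and had -0.11 ± 0.07 SE in flox hearts (interaction -0.36 ± 0.10 SE, adjusted p = 0.553). Crot, which makes carnitine esters of the shortened acyl groups, had an interaction of -0.54 ± 0.16 SE (adjusted p = 0.599). Among 26 peroxisomal oxidation genes 5 had a negative and 0 a positive unadjusted p under 0.05 (2.97% and 2.77% of all genes). The median was -0.097, and 3 to 7 were negative when 1 library was left out. The genotype difference was called for 3 members under PBS and 9 after LPS, all lower in deficient hearts (0.401% and 0.85% of all genes).

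For mitochondrial fatty acid oxidation the interactions were small. All 28 tested genes had intervals within the 2-fold bound, and the median was -0.016. Of them 1 had a negative (0 to 4 when 1 library was left out) and 0 a positive unadjusted p under 0.05 (2.97% and 2.77% of all genes). The difference between genotypes was about the same under PBS (18 genes lower, median -0.617) and after LPS (19 lower, median -0.594). Of all genes 0.401% and 0.85% were called lower. Etfdh, which passes electrons from the oxidation enzymes to ubiquinone, was 503 to 656 CPM in flox and 271 to 279.9 in deficient PBS hearts, and 454 to 513 and 179 to 204 after LPS. Its interaction was -0.22 ± 0.11 SE (adjusted p = 0.894). Eci2, an enoyl-CoA isomerase, had -0.18 ± 0.10 SE (adjusted p = 0.937), and Acad11, an acyl-CoA dehydrogenase, -0.29 ± 0.13 SE (adjusted p = 0.843).

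The 33 PPARα target genes of the list held 6 negative and 1 positive unadjusted p under 0.05 (2.97% and 2.77% of all genes), with a median of -0.105. The negative count was 5 to 10 when 1 library was left out. Of the 33 genes, 18 were called lower in deficient hearts under PBS (0.401% of all genes) and 23 after LPS (0.85% of all genes). Ucp3, a mitochondrial carrier that responds to fatty acids, was 27.8 to 73.3 CPM in flox PBS and 5.02 to 16.1 in deficient PBS hearts. After LPS it was 234, 251, 117 and 169 CPM in flox and 20.3, 19.2, 13.6 and 9.91 in deficient hearts. It rose in flox hearts (3.60-fold, adjusted p = 0.00046), and the effect in deficient hearts was 0.64 ± 0.35 SE (adjusted p = 0.17), with an interaction of -1.21 ± 0.48 SE (adjusted p = 0.815).

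Fabp3, the heart fatty acid binding protein, was 1930.3 to 3070.5 CPM in flox LPS and 1065 to 1264 in deficient LPS hearts (interaction -0.45 ± 0.17 SE, adjusted p = 0.814). The thioesterase gene Acot3 was 0.901 to 1.59 CPM in flox LPS hearts and 0.0528 to 0.247 in deficient ones, near the 0.152 to 0.178 CPM that 12 counts, about 3 read pairs, are worth. Its relative Acot9 went the other way, with 32.2 to 38 CPM in flox and 39.4 to 48.8 in deficient LPS hearts (interaction 0.42 ± 0.13 SE, adjusted p = 0.618).

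Slc25a34 and Adipor2 overlapped between genotypes under PBS and were apart after LPS. Slc25a34, a member of the mitochondrial carrier family, was 154, 198, 206 and 206 CPM in flox PBS hearts and 197, 219.9, 204 and 184 in flox LPS hearts. In deficient hearts it was 212, 198, 183 and 209 CPM under PBS and 105, 71.3, 126 and 100.5 after LPS. Only the deficient LPS hearts left the common range. Slc25a34 fell in deficient hearts (-0.99 ± 0.14 SE), the effect in flox hearts was 0.08 ± 0.14 SE, and the interaction was -1.07 ± 0.19 SE (adjusted p = 0.128).

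Adipor2, an adiponectin receptor, was 84 to 88.4 CPM in flox PBS and 75.2 to 87.3 in deficient PBS hearts. After LPS it was 186, 229.9, 174 and 151 CPM in flox and 115, 101, 97.7 and 93.6 in deficient hearts. It rose 2.17-fold in flox and 1.25-fold in deficient hearts (interaction -0.80 ± 0.15 SE, adjusted p = 0.148). Acacb, the acetyl-CoA carboxylase whose product restrains fatty acid entry into mitochondria, fell 1.44-fold in flox and 2.21-fold in deficient hearts, to 338 to 449 and 204 to 250.1 CPM (interaction -0.62 ± 0.12 SE, adjusted p = 0.174).

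The remaining genes of small p had varied functions. Hmox1, heme oxygenase 1, a stress gene, was 8.79, 15, 10.9 and 8.75 CPM in flox PBS hearts and 114, 75.9, 47.2 and 66.5 in flox LPS hearts. In deficient hearts it was 13.2, 16.8, 14.4 and 26.5 CPM under PBS and 35.2, 29.9, 37.7 and 24.7 after LPS. The flox LPS hearts were all above the deficient LPS hearts. Hmox1 rose 7-fold in flox and 1.80-fold in deficient hearts (interaction -1.96 ± 0.37 SE, adjusted p = 0.158).

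Bcl2l1, the gene of the survival protein Bcl-xL, had the largest positive interaction among those of the 20 that rose in both genotypes. It was 19.8, 18, 19.4 and 51 CPM in flox PBS hearts and 52, 56.5, 36.5 and 50.8 in flox LPS hearts. The deficient hearts had 22.7, 22.3, 14.2 and 15.8 CPM under PBS and 195, 162, 74 and 122 after LPS. The flox groups overlapped through PBS replicate 4, and the deficient LPS hearts were above all others. It rose 1.81-fold in flox and 7.38-fold in deficient hearts (interaction 2.03 ± 0.46 SE, adjusted p = 0.326). Tjap1, of tight junctions, had an interaction of 0.66 ± 0.16 SE, and Lins1 1.02 ± 0.24 SE (adjusted p = 0.326 for both).

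In Tymp, Col11a2 and Esr1, as in Ppara, the genotypes differed under PBS and the difference was smaller after LPS. Tymp, thymidine phosphorylase, was 2.25 to 8.52 CPM in flox PBS and 0.659 to 2.08 in deficient PBS hearts, and the genotypes overlapped after LPS at 1.1 to 1.82 and 1.44 to 2.6 CPM (interaction 2.60 ± 0.54 SE, adjusted p = 0.201). Col11a2, a collagen chain, narrowed likewise from 3.55 to 6.72 and 1.71 to 2.54 CPM under PBS to 2.01 to 3.05 and 2.38 to 2.88 after LPS (interaction 1.41 ± 0.29 SE, adjusted p = 0.203). Both are low, and as with Ppara the flox level approached the deficient one.

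Esr1, the estrogen receptor α gene, had the largest negative value of the 20. It was 0.0517 to 0.512 CPM in flox PBS and 0.0522 to 0.516 in flox LPS hearts. In deficient hearts it was 3150.1, 2859, 3068 and 3200.5 CPM under PBS and 28.3, 42.3, 111 and 152 after LPS. LPS lowered it 36.8-fold in deficient hearts (adjusted p = 1.3e-06). The flox libraries lie around the floor of 12 counts, and the fitted interaction was -5.19 ± 1.04 SE (adjusted p = 0.174). Tamoxifen-inducible Cre recombinases carry part of this receptor, and whether the reads come from the gene or from such a transgene was not tested.

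Ednrb, the endothelin B receptor, showed crossing levels. It was 7.46 to 11 CPM in flox PBS and 11.5 to 20 in deficient PBS hearts, and 14.6 to 20.7 in flox LPS and 9.87 to 17.1 in deficient LPS hearts (interaction -1.34 ± 0.27 SE, adjusted p = 0.174). It is 1 of 5 genes among 32 of endothelial adhesion and vascular signalling with a negative unadjusted p under 0.05, where 0 were positive (median -0.096). The shares among all genes were 2.97% and 2.77%. The negative count was 4 to 7 when 1 library was left out. Selp, described below, is also among the 5, with an interaction of -2.43, and -0.922 without deficient PBS replicate 4. Aplnr, the apelin receptor, fell in both genotypes and further in deficient hearts, to 2.17 to 4 and 1.05 to 2.1 CPM (interaction -0.92 ± 0.31 SE, adjusted p = 0.712). Of 10 endothelial marker genes 8 were negative (median -0.116), all 10 had intervals within the 2-fold bound, and their summed level was 1348 to 1829 CPM in flox LPS and 1459 to 1615 in deficient LPS hearts.

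Genes of oxidative phosphorylation and the tricarboxylic acid cycle had small, mostly positive interactions. Nuclear subunits of oxidative phosphorylation had 75 of 76 intervals within the 2-fold bound and 71 positive values with a median of 0.082. The medians of their LPS effects were -0.216 in flox and -0.124 in deficient hearts. Of the members 37 fell in flox and 14 in deficient hearts (19.1% and 18.3% of all genes). Ndufa6 (0.27 ± 0.11 SE, adjusted p = 0.823) and Ndufa11 (0.38 ± 0.18 SE, adjusted p = 0.862), both of complex I, had the 2 unadjusted p under 0.05 of this list. That count is near the 2.77% of all genes with a positive one. All 25 tricarboxylic acid cycle genes lay within the bound (median 0.058). The 13 mitochondrially encoded genes did too (median 0.045).

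Among 41 genes of glucose uptake, glycolysis and pyruvate dehydrogenase control, 5 had a positive and 0 a negative unadjusted p under 0.05 (2.77% and 2.97% of all genes). The median was 0.104, and 3 to 6 were positive when 1 library was left out. Fbp2, the muscle fructose bisphosphatase, was 14.6 to 25.5 CPM in flox PBS and 1.69 to 3.66 in deficient PBS hearts, then 21.6 to 32.1 and 4.62 to 11.8 after LPS. It rose in deficient hearts (3.21-fold, adjusted p = 0.00027) without reaching the flox range (interaction 1.29 ± 0.41 SE, adjusted p = 0.640). Pdp2, a phosphatase that activates pyruvate dehydrogenase, fell in both genotypes (interaction 0.66 ± 0.24 SE, adjusted p = 0.780). Ppargc1a, the coactivator of mitochondrial biogenesis, fell 14.1-fold in flox and 6.91-fold in deficient hearts, to 18.6 to 36.6 and 29.3 to 108 CPM with overlap (interaction 1.02 ± 0.48 SE, adjusted p = 0.870).

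Calcium cycling and ion channel genes mostly fell. Of 43 tested, 31 fell in flox and 29 in deficient hearts (19.1% and 18.3% of all genes), and the median interaction was 0.087. Of the 43, 1 had a positive and 0 a negative unadjusted p under 0.05 (2.77% and 2.97% of all genes). The positive count, near the share of all genes, was 1 to 4 when 1 library was left out, and 32 of 43 intervals lay within the 2-fold bound. That 1 was Pln, phospholamban, the brake of the calcium pump, which fell by 1.11 on the log2 scale in flox and by 0.70 in deficient hearts (interaction 0.41 ± 0.16 SE, adjusted p = 0.815). Of 19 cardiac transcription factors, 2 were positive at an unadjusted p under 0.05 and 0 negative (2.77% and 2.97% of all genes). The 2 were Gata4 (0.37 ± 0.16 SE, adjusted p = 0.842) and Irx4 (0.60 ± 0.23 SE, adjusted p = 0.804). Chaperones and genes of the integrated stress and unfolded protein responses had 8 of 35 positive and 0 negative, beside the same shares of all genes (median 0.159). The positive count was 3 to 8 when 1 library was left out. The 8 include Hspb7 and Cryab from above and Psat1, a serine synthesis enzyme (0.61 ± 0.23 SE, adjusted p = 0.804), which rose in both genotypes.

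**Figure D4:**
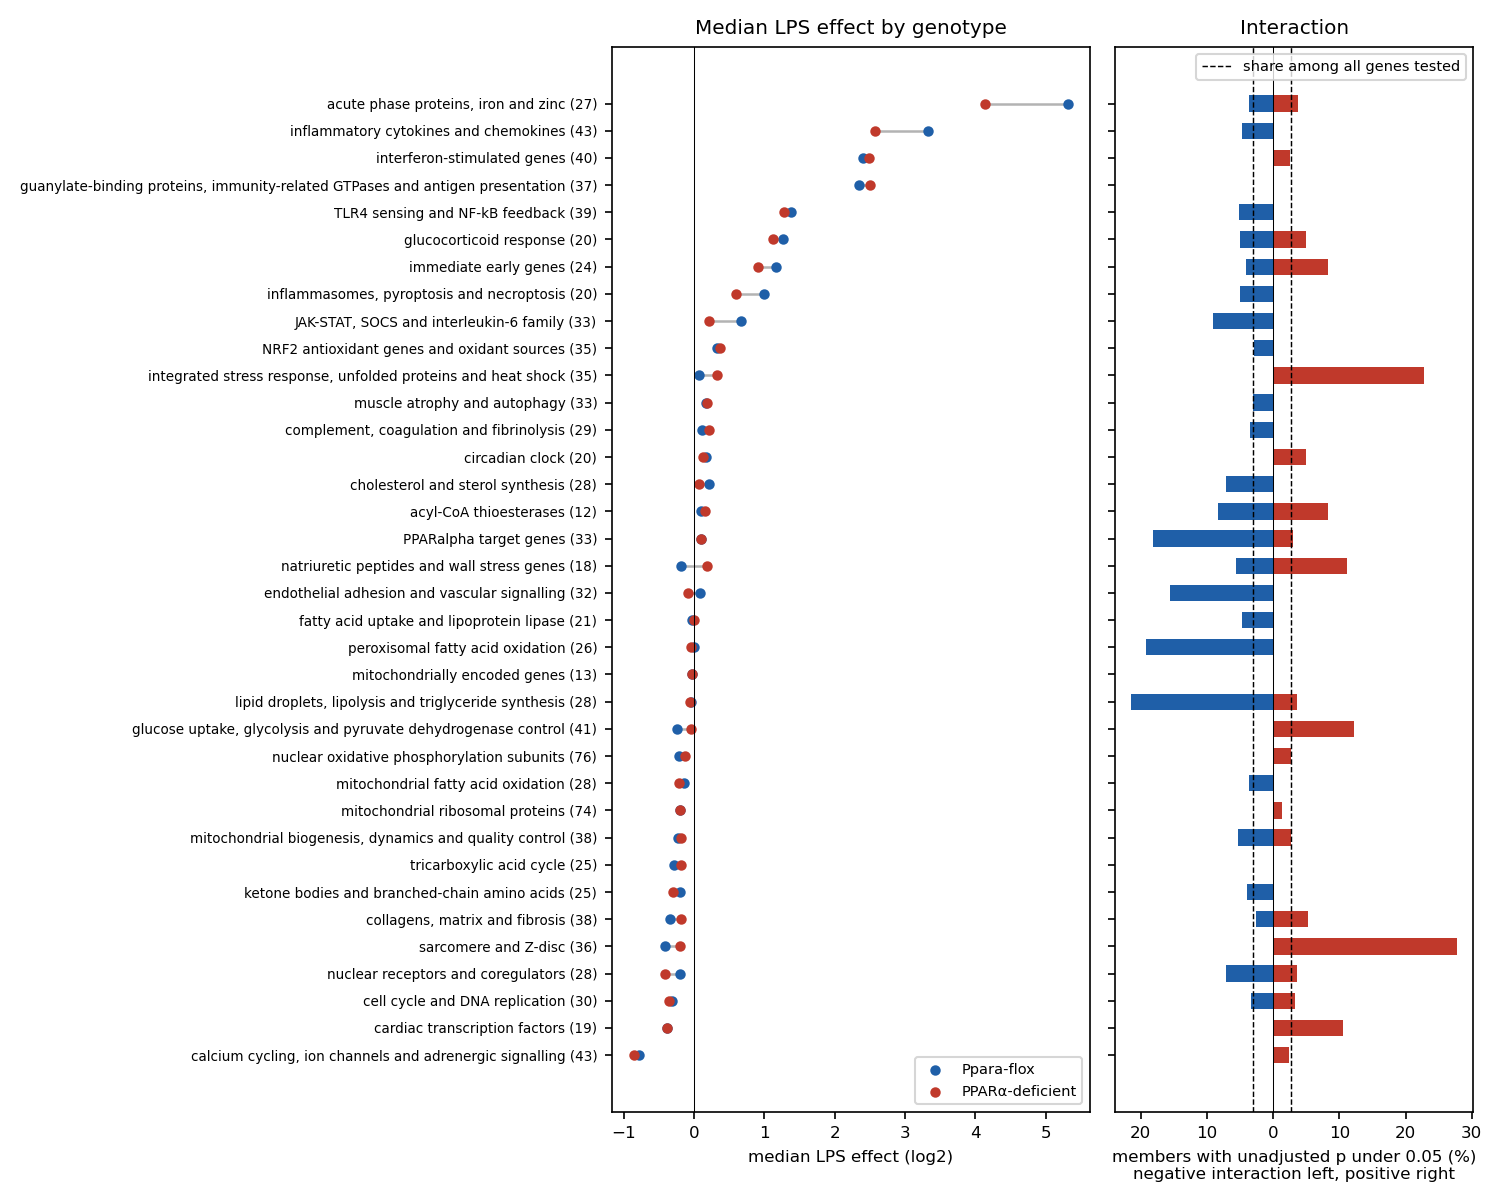
Left, median LPS effect (log2) of the members of 36 function lists in flox (blue) and deficient hearts (red), with the number of tested members in brackets. Right, percentage of members with an unadjusted interaction p under 0.05, negative to the left and positive to the right, with dashed lines at the shares among all genes (2.97% and 2.77%). The lists were written with earlier results of these data known. The medians lie close together in most lists, and the longest bars are sarcomere and Z-disc (10 of 36) and the stress and heat shock list (8 of 35) among positive ones and lipid droplets (6 of 28) among negative ones.

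Immune lists had the largest median LPS effects. Of 43 inflammatory cytokines and chemokines 33 rose in flox and 31 in deficient hearts (20.2% and 19.4% of all genes). Of the 43, 2 had a negative and 0 a positive unadjusted p under 0.05 (2.97% and 2.77% of all genes). The negative count was 1 to 7 when 1 library was left out, the highest without deficient PBS replicate 2. Their median interaction was -0.599, but 0.128 without deficient PBS replicate 4. That library had higher levels of inflammatory genes than the other PBS hearts of its group, for example 32.2 CPM of Socs3, a feedback inhibitor of cytokine signalling, against 5.93 to 8.7. Neutrophil markers summed to 4.455 to 13.36 CPM in deficient PBS and 5.41 to 6.512 in flox PBS hearts, and to 63.88 to 98.43 and 70.92 to 128.3 after LPS, and their median interaction went from -0.19 to 0.844 without that library.

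Single immune genes followed this. The interaction of Socs3 was -1.28 ± 0.56 SE (adjusted p = 0.843), and -0.349 without deficient PBS replicate 4. Selp, P-selectin of activated endothelium, had -2.43 ± 0.83 SE (adjusted p = 0.737), and -0.922 without it. Sele, E-selectin, had -1.49 ± 0.70 SE (adjusted p = 0.862), and -0.379 without it. Their LPS levels overlapped between genotypes, at 96.9 to 139.8 and 90.7 to 111 CPM for Socs3. Il6 was listed at 0 in all flox PBS hearts and at 0 to 0.804 CPM in deficient PBS hearts, and reached 2.77 to 4.58 CPM in flox and 3.69 to 7.17 in deficient LPS hearts, so that its fitted value has no reading as a fold.

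Interferon-stimulated genes rose in 36 of 40 cases in flox and 38 in deficient hearts (20.2% and 19.4% of all genes). Of these 40 genes 31 had a positive interaction (median 0.21), 1 with an unadjusted p under 0.05, near the 2.77% of all genes. That count was 1 to 8 when 1 library was left out, and the median then ran from -0.057 to 0.459. That gene was Irf1, a transcription factor of the interferon response, at 38.1, 27.6, 30.5 and 28.8 CPM in flox LPS and 81.3, 73.1, 58.7 and 25.5 in deficient LPS hearts. Deficient replicate 4, the weakest responder, was below all flox hearts and the other 3 were above them (interaction 0.91 ± 0.36 SE, adjusted p = 0.814). Guanylate-binding proteins, immunity-related GTPases and antigen presentation had 0 of 37 in either direction (median 0.138, and -0.1013 to 0.3492 when 1 library was left out). Cebpd, an acute-phase transcription factor, had -0.67 ± 0.22 SE (adjusted p = 0.712), and Dusp1, a phosphatase that limits stress kinases, 0.54 ± 0.18 SE (adjusted p = 0.697).

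Lcn2, lipocalin 2, an iron-trapping acute-phase protein, rose by 9.31 ± 0.27 SE in flox and by 9.37 ± 0.28 SE in deficient hearts, with 1419 to 1856 and 1212 to 1937 CPM after LPS (interaction 0.06 ± 0.28 SE, adjusted p = 0.999). Cfb, complement factor B, had an interaction of 0.03 ± 0.27 SE, and Serpina3n, a protease inhibitor, -0.40 ± 0.48 SE (adjusted p = 0.999 for both). Cxcl9, a chemokine induced by interferon γ, had -0.67 ± 0.49 SE (adjusted p = 0.991). The signs of Lcn2, Cfb and Serpina3n changed when single libraries were left out.

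Saa3, serum amyloid A3, was at or under 0.821 CPM in all PBS hearts and reached 597 to 1054 CPM in flox and 600.0 to 1355 in deficient LPS hearts. These levels overlapped, with a genotype difference after LPS of 0.07 ± 0.31 SE, while the interaction of -3.52 ± 0.85 SE (adjusted p = 0.326) rests on PBS levels near the floor. Ptx3, a pattern-recognition protein, had -1.51 ± 0.62 SE (adjusted p = 0.816, and a value of -0.887 without deficient PBS replicate 4) with 63.8 to 115 CPM in flox and 80.3 to 155 in deficient LPS hearts. Ankrd2, a titin-binding muscle protein, rose from at most 0.33 CPM to 15.5 to 43.2 in flox and 34.8 to 98.3 in deficient LPS hearts (interaction 1.43 ± 0.92 SE, adjusted p = 0.970).

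Among the strongest falls, Myh7b, a myosin heavy chain gene, went from 171 to 222 CPM to 6.99 to 9.93 in flox hearts and from 173 to 228 to 7.71 to 13.4 in deficient hearts. Its interaction was 0.15 ± 0.22 SE (adjusted p = 0.999). Klhdc8a had 0.26 ± 0.42 SE, Epha4, an ephrin receptor, 0.04 ± 0.28 SE, Lrrc15 0.09 ± 0.39 SE and Aqp7, a glycerol channel, -0.06 ± 0.43 SE (adjusted p = 0.999 for each). The signs of these 5 genes changed in 1 to 7 of the alternative fits, and each interval includes 0. Arhgef19, a guanine nucleotide exchange factor, had 0.67 ± 0.35 SE (adjusted p = 0.917), and 0.304 without deficient LPS replicate 4.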

How the data were processed

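RNA from whole hearts of 16 mice was sequenced with a stranded kit, per the labels' protocols. The deposited values are estimated counts per gene symbol, written by the authors as whole numbers with low values piled at multiples of 4. The tools listed are StringTie 1.3.3b, HISAT and fastp 0.23.2, with the GRCm38 build, per the submitters' processing notes, while annotation and strand setting are not given in the sources used here. Symbols turned into dates (27, 0.0644% to 0.0861% of counts) were dropped and 116 repeated symbols summed. Genes passing filterByExpr (18713) were fitted with edgeR 4.0.16 (quasi-likelihood, TMM, 4 group means, 12 residual degrees of freedom) and adjusted by Benjamini-Hochberg, with calls at 0.05. DESeq2 1.42.0, limma 3.58.1 and other filters, scalings and left-out libraries were alternatives, and the script was tested on simulated data. The members and gene lists were chosen with earlier results of these data known. Named genes are Ppara, the 10 of smallest unadjusted p in each direction with an average log2 CPM of at least 0, up to 3 members of each list by p, and the 8 strongest average LPS effects each way, while others were chosen after their values were seen. Some genes that this rule names are not reported here.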

Additional observations from a re-analysis of the deposited data

Results flagged for a closer look

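Among 72 named genes, 2 had every LPS library of one genotype below, and every LPS library of the other above, the PBS mean of its own genotype. For Synpo2l (interaction 2.06) the flox hearts were below and the deficient hearts above, with no overlap between PBS and LPS libraries. For Col11a2 (1.41) the direction was the same, but the deficient PBS and LPS libraries overlapped and its effect in deficient hearts was not called. The interaction tests of both genes did not pass.

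In 17 of 288 sets of 4 libraries a single library lay far from the other 3 for their range, where chance gives about 1 in 20. Sets with all 4 libraries at very low levels count among the 288 but were not examined. Small gaps in tight sets are flagged too, such as Adipor2 at 88.4 CPM against 84.0 to 84.5. Deficient PBS replicate 4 accounts for 5 of the 17, all higher, with Myc at 5.34, Selp at 2.79, Sele at 5.54, Socs3 at 32.2 and Serpina3f at 2.27 CPM. The interaction of Serpina3f, a serpin, was -2.77, and -1.03 without that library.

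Among deficient LPS hearts replicate 1 was low for Flnc (520.1 CPM), and replicate 4 was high for Acad11 (104.4) and Arhgef19 (15.2). The Arhgef19 interaction was 0.304 without replicate 4. Among flox LPS hearts replicate 1 stood apart for Myc (19.8) and 4933434E20Rik (6.58), replicate 3 for Tjap1 (32.3) and replicate 4 for Usp18 (40.1). Among flox PBS hearts replicate 1 was low for Slc25a34 (154.3), replicate 2 stood apart for Pdp2 (24.4) and 4933434E20Rik (4.66), and replicate 4 was high for Bcl2l1 (51.0) and Adipor2 (88.4).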

How the results depend on the processing

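The interaction called 0 genes in the reported fit and 0 under other scalings, without a low-count filter, with limma-voom and without mitochondrially encoded genes. It called 4 at an adjusted p under 0.1, 4 at 1 CPM in 8 libraries, 4 with counts divided by 4, 55 with DESeq2, 2 with bias-adjusted deviances and 5 without the 2 LPS libraries together, and 0 to 4 with 1 library left out. At 1 CPM in 8 libraries Csrp3, Synpo2l and Nceh1 had an adjusted p of 0.0473. With DESeq2 the genotype difference gave 183 calls under PBS and 444 after LPS. The agreement of the 2 LPS responses (r) was 0.357 without a filter, 0.925 at 1 CPM in 8 libraries, 0.882 with counts divided by 4, 0.723 with DESeq2, 0.78 with limma-voom, 0.778 with the PBS number series as a term, 0.695 without the 2 LPS libraries, 0.92 for better expressed genes, and 0.698 to 0.721 with 1 library left out. The response size of each LPS library differed by -0.0546 to 0.0045 with 1 library left out, turning positive without deficient PBS replicate 4 (0.0001) or deficient LPS replicate 4 (0.0045).

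Of 2059 comparisons of 71 named genes with alternatives, 1991 kept direction and side of the threshold, 40 passed it (20 genes) and 28 changed sign (8 genes). The alternatives included the reported fit read at an adjusted p under 0.1. The Klhdc8a interaction was -0.016 without the 2 LPS libraries, and with limma-voom the Aqp7 interaction was 0.074 and the Lrrc15 interaction -0.092. With 1 library left out the ranges were -0.026 to 0.254 for Myh7b, -0.264 to 0.287 for Aqp7, -0.169 to 0.168 for Epha4, -0.23 to 0.306 for Lrrc15, -0.135 to 0.197 for Cfb, -0.661 to 0.024 for Serpina3n and -0.125 to 0.249 for Lcn2. The cause of these changes was not tested.

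Replicate numbers are shared between groups in the labels but do not pair the mice: deviations of 24 same-numbered pairs correlated at -0.219 to 0.223, 5 of them over 0.1, and 4 of 16 libraries matched their own number best. With the replicate block 0 genes were called (smallest edgeR adjusted p = 0.271). Levels under 0.152 to 0.178 CPM are within 12 counts, about 3 read pairs.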

Other observations

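Of 38 collagen, matrix and fibrosis genes 2 were positive and 1 negative at an unadjusted p under 0.05 (2.77% and 2.97% of all genes). The median was 0.063, and 1 to 6 were positive when 1 library was left out. Col8a1, a short-chain collagen, fell in both genotypes, from 15.7 to 21.8 to 4.42 to 6 CPM in flox and from 14 to 21.7 to 2.94 to 4.47 in deficient hearts (interaction -0.53 ± 0.23 SE, edgeR adjusted p = 0.835). Tgfb3, a transforming growth factor, fell 1.99-fold in flox and 1.41-fold in deficient hearts (interaction 0.50 ± 0.16 SE, adjusted p = 0.684). Of 28 sterol synthesis genes 2 were negative (1 to 4 when 1 library was left out) and 0 positive, beside the same shares of all genes (median -0.136). Idi1, of the mevalonate pathway, was 2.77 to 3.22 CPM in flox PBS and 4.01 to 6.22 in deficient PBS hearts, and 4.71 to 5.73 and 4.45 to 5.7 after LPS. It rose in flox hearts, and its interaction was -0.79 ± 0.22 SE (adjusted p = 0.553).

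Macrophage markers fell in flox (8 of 14) and deficient hearts (7 of 14), where 19.1% and 18.3% of all genes fell. Of the 14, 13 had a positive interaction (median 0.132, and -0.0017 without flox LPS replicate 4 and deficient LPS replicate 3). Their summed level was 192.3 to 256.6 CPM in flox LPS and 217.4 to 298.2 in deficient LPS hearts. Immediate early genes had a median interaction of -0.242, and of 0.0075 without deficient PBS replicate 4.

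Gm20716 and Hist2h2aa1, chosen after their values were seen, lie farthest from the line of equal effects in the plot of both responses. The gene model Gm20716 had an interaction of -15.18 ± 6.34 SE (adjusted p = 0.832) and the histone gene Hist2h2aa1 12.88 ± 5.98 SE (adjusted p = 0.870). DESeq2's Wald test called both (adjusted p = 0.00117 for Gm20716 and 0.00359 for Hist2h2aa1). In both, 1 PBS group was at 0 and the genotypes overlapped under PBS and after LPS, so the fitted values have no reading as folds.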
